A study of Mus musculus with 66 samples.

Results

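H3K4me3 was compared between mouse small intestinal organoids that had been deprived of R-Spondin-1 (EN) and organoids kept in the regular medium (ENR), across all regions of a union of peaks. The comparison rests on 6 of the 66 samples of the series, the libraries EN1, EN2, EN4, ENR1, ENR2 and ENR4. They were chosen by their labels among the libraries that have normalized scores, without regard to the values. Further EN and ENR H3K4me3 samples of the series have no scores among the values used here. Of 94469 regions, the 20406 with a mean H3K4me3 score of at least 5 were tested. ENR medium held EGF at 50 ng/ml, Noggin at 10% and R-Spondin-1 at 5%, and EN medium held the same EGF and Noggin without R-Spondin-1 for 2.5 days, which moves the culture towards enterocytes. Organoids of both media carried a GFPDTR insertion at 1 Lgr5 allele. The 3 CV libraries, from organoids given CHIR99021 at 3 µM and valproic acid at 1 mM on top of ENR medium for 5 days, were in the same fit, where they helped to set the spread and, through the mean over all 9 libraries, which regions passed the minimum score. The labels number the libraries but do not say whether they came from separate cultures, so p-values measure the spread between these libraries, which may be technical. H3K4me3 was mapped by ChIPmentation, in which a transposase cuts and tags chromatin that is bound to the antibody, and the values are the authors' normalized scores per region.

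H3K4me3, the trimethylation of lysine 4 on histone H3, marks the start sites of transcribed genes and is written by complexes of the Set1 and Mll families, whose CXXC subunits recognise unmethylated CpG. Promoters that are rich in CpG therefore often hold the mark even where transcription is low, and in stem cells some of them hold the repressive mark H3K27me3 as well. In the intestine, R-Spondin keeps Wnt signalling high in the crypt, where stem cells divide, and cells that leave it become absorptive enterocytes or secretory cells.

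The start sites of 6 genes are printed first, in 300 bases each, because regions that gained and lost H3K4me3 in EN differed in CpG content. They belong to the genes whose promoter regions rose most (Cyp3a11 and Ggt1) and fell most (Fam49a and Cdh23), with Alpi, the intestinal alkaline phosphatase, and the antisense gene of Hnf4a. Each is printed from the mm9 genome on the strand of the gene, with the start site at base 150 and every CpG in capitals. The windows lie at chr5:146691390-146691689 (minus strand, Cyp3a11), chr10:75026751-75027050 (plus strand, Ggt1), chr12:12268796-12269095 (plus strand, Fam49a), chr10:60149855-60150154 (minus strand, Cdh23), chr1:88998031-88998330 (minus strand, Alpi) and chr2:163367278-163367577 (minus strand, the antisense gene of Hnf4a).
Cyp3a11: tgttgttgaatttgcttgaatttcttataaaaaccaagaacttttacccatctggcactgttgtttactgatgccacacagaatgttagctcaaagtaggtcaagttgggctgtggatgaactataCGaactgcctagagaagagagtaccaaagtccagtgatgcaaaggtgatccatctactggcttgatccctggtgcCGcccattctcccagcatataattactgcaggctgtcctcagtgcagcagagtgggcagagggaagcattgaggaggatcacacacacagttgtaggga
Ggt1: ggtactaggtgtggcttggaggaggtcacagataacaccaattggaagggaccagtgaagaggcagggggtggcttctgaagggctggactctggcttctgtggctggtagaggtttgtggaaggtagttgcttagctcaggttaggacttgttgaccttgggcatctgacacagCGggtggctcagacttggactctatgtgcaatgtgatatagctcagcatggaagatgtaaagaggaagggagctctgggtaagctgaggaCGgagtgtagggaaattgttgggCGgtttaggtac
Fam49a: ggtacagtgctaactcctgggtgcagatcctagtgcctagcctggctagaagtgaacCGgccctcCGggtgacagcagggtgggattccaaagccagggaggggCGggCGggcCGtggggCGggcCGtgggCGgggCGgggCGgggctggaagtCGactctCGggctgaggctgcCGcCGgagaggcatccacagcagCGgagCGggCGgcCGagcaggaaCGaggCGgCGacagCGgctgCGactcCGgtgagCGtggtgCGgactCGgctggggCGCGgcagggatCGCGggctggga
Cdh23: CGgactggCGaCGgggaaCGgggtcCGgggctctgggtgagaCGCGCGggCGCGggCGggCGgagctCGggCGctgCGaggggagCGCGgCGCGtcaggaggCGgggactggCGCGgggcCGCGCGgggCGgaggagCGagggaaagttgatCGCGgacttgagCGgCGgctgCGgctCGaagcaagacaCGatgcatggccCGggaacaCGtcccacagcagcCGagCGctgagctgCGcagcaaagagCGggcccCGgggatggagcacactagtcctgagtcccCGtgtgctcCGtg
Alpi: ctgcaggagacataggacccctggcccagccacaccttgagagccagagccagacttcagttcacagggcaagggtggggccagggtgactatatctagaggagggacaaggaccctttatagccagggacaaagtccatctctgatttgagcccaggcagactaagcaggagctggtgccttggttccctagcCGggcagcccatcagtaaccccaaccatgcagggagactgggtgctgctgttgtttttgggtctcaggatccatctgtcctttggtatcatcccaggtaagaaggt
Hnf4a antisense gene: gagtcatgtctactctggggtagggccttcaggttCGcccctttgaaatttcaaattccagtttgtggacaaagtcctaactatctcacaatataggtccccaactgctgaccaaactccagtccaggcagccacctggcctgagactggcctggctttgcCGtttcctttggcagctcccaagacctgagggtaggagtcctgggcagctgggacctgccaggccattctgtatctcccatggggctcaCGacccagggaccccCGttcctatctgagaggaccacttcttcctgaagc
The windows of the genes that gained the mark held 2 CpG (Cyp3a11), 3 (Ggt1), 1 (Alpi) and 4 (the antisense gene), against 31 at Fam49a and 43 at Cdh23, which lost it. These genes are picked, and the groups as a whole differed far less. Over all such windows on start sites of protein-coding genes, the median was 19 CpG for regions higher in EN. It was 25 for those lower and 26 for those not called. The regions that rose at Cyp3a11 and Ggt1 lay further downstream, outside the printed bases.

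The EN and ENR libraries differed in their summed score and in how many regions had a score of 0. Regions at 0 numbered 7193 in EN1, 31170 in EN2 and 20990 in EN4. In ENR1, ENR2 and ENR4 they numbered 44108, 42724 and 44224. The part of this difference in the rises at weakly marked regions was not tested. Scores summed to between 984840 and 1100967 in EN and between 840599 and 863358 in ENR, and the 7247 regions with a mean score of at least 50 took 67.2% ± 3.70 (SD, n = 3) of the score in EN and 69.7% ± 0.402 in ENR. Regions within 1000 bp of a start site took 81.6% ± 2.52 in EN and 86.9% ± 0.345 in ENR. The exact two-sided permutation test gave p = 0.1 for the sums, p = 0.2 for the share in strong regions and p = 0.1 for the share near start sites, where 3 libraries against 3 cannot give less than 0.1. In EN1, low scores came in steps, with 1, 4, 7, 11 and 14 held by more regions than the neighbouring scores, and 54407 regions were at 1. In no other EN or ENR library did more than 1 low score stand out in this way. The number of reads behind the scores is not known. Log2 scores of the tested regions correlated with r between 0.84 and 0.945 among EN libraries and between 0.965 and 0.978 among ENR libraries, over 3 pairs each. Of 5 epithelial markers, Epcam had scores of 161, 200 and 213 in EN and 110, 125 and 114 in ENR and was called higher (0.71, limma adjusted p = 0.039). Cdh1, Vil1, Krt8 and Krt18 were not called, and Krt18 lay in the other direction, with 69, 85 and 99 in EN and 124, 120 and 105 in ENR. Of 20 markers of immune, stromal, endothelial and nerve cells, 8 had a region near a start site, whose scores summed to between 29 and 41 in EN and between 50 and 55 in ENR, and the 2 that were tested (Col1a1 and Pdgfra) were not called. RNA was tested for 8 of the 20 markers, which were not all the same genes as those with a region. Its sum went the other way, with a summed mean of 41.5 CPM (read counts scaled to a common library size) in EN and 17.0 in ENR. The direction of single markers is not given by this sum. The part of such cells in the results was not tested. In bulk organoids, fewer cells of a type and less mark per cell cannot be told apart.

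H3K4me3 was higher in EN at 14 of 21 tested enterocyte genes and lower at 7 of 25 stem cell and Wnt target genes, and the largest single rise was at Cyp3a11. Of 20406 regions tested, 1414 were called (6.93%), 915 higher in EN (4.48%) and 499 lower (2.45%). The test was limma's moderated test on log2(score + 1) over 9 libraries, with Benjamini-Hochberg adjusted p under 0.05 taken as a call, and 5372 regions had an unadjusted p under 0.05. The EN and ENR values did not overlap in 26.7% of the regions tested. The median difference of all regions tested was 0.16 on the log2 scale, and 64.7% of the calls were higher in EN. That split was 51.2% after quantile normalization, which brought the median to -0.01, 36.3% when the strong regions were centred, 53.2% without EN2 and 47.7% without EN4. The count of calls rested on single libraries as well. It was 6527 without EN1, 222 without EN2 and 1136 without EN4, and 60, 144 and 81 without ENR1, ENR2 and ENR4. With the 6 libraries alone, 32 regions were called, all of them among the 1414. Of the 1414 regions, 96.7% were called without EN1, 56.1% without EN4, 15.2% without EN2, and 3.96%, 10.0% and 5.45% without ENR1, ENR2 and ENR4.

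The 12 promoter regions with the largest rises included those of enzymes of drug, glucose, lipid and glutathione metabolism. A promoter region is the region with the highest mean score within 1000 bp of a start site of the gene, and 12254 of 14095 protein-coding genes with such a region passed the minimum. Some genes share a region, and the 12254 genes had 10992 regions. Of the 12254, 446 were higher in EN (3.64%) and 369 lower (3.01%). At Cyp3a11, a cytochrome P450 that oxidises drugs and steroids, scores were 23, 23 and 31 in EN and 2, 1 and 2 in ENR. The difference was 3.33 ± 0.48 on the log2 scale (SE, limma adjusted p = 0.00708), and its region, chr5:146690656-146691003, lay 537 bp downstream of the start site, in an intron. Ggt1, the gamma-glutamyltransferase that breaks down glutathione, had 9, 20 and 18 in EN and 2, 1 and 1 in ENR (2.79 ± 0.45, limma adjusted p = 0.0117). Both genes had scores of 1 or 2 in every ENR library, and the lowest EN value of either was 9. Their CV means were 1.33 and 0.667, so both passed the minimum score only through EN. The direction of regions admitted in this way was fixed by the filter.

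G6pc and Pck1, which both act in gluconeogenesis, were among the 12. G6pc, the glucose-6-phosphatase that releases free glucose, had scores of 19, 36 and 40 in EN and 4, 6 and 4 in ENR (2.48 ± 0.41, limma adjusted p = 0.0127). Pck1, the phosphoenolpyruvate carboxykinase, had 8, 15 and 30 in EN and 0, 4 and 3 in ENR (2.60 ± 0.62, limma adjusted p = 0.0301). The EN values of Pck1 were spread over a wide range, and its lowest, in EN1, was 4 above the highest ENR value. Creb3l3, a membrane-bound transcription factor of liver and intestine, was marked more strongly, with 66, 117 and 158 in EN and 22, 25 and 20 in ENR (2.22 ± 0.27, limma adjusted p = 0.00534). The region spans its start site at chr10:80554311-80556078. 2010003K11Rik had 38, 64 and 104 in EN and 13, 14 and 11 in ENR (2.24 ± 0.32, limma adjusted p = 0.00708). In both genes EN1 was the lowest EN library and EN4 the highest. The other 6 were Acot12 (an acyl-CoA thioesterase), Ces1f (a carboxylesterase), Lrrc19, Slc13a1 (a sodium and sulfate cotransporter), Akr1c19 (an aldo-keto reductase) and Leap2 (a secreted peptide), with differences from 2.15 to 2.64. Like Cyp3a11 and Ggt1, the regions of G6pc, Pck1, Lrrc19 and Slc13a1 passed the minimum score only through EN. Those of Lrrc19 and Slc13a1 were not tested without EN1. Gsta1 would have been among the 12 but was left out, because 71.5% of the 31-base words of its region occur elsewhere in the genome.

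The 12 promoter regions with the largest falls had ENR means between 9.67 and 58.0, and their genes have varied functions. Fam49a had scores of 1, 7 and 1 in EN and 25, 17 and 18 in ENR (-2.71 ± 0.50, limma adjusted p = 0.0142). Cdh23, a cadherin known from the tip links of sensory hair cells, had 5, 0 and 0 in EN and 11, 9 and 9 in ENR (-2.55 ± 0.60, limma adjusted p = 0.0299). Cit, the citron kinase that acts in cytokinesis, started from the highest level of the 12, with 4, 10 and 24 in EN and 54, 60 and 60 in ENR (-2.41 ± 0.42, limma adjusted p = 0.0128). Its ENR values were close together, while the EN values ran from 4 to 24. Nkd2, a Wnt antagonist that binds Dishevelled, had 1, 9 and 3 in EN and 15, 21 and 28 in ENR (-2.33 ± 0.52, limma adjusted p = 0.0243). Tnf, the tumour necrosis factor gene, had 4, 4 and 9 in EN and 27, 28 and 25 in ENR (-2.13 ± 0.31, limma adjusted p = 0.00708). Sema3a, a secreted cue that guides axons, had the widest range in ENR, with 4, 21 and 6 in EN and 83, 44 and 33 in ENR. Nrcam, an adhesion molecule of nerve cells, had 1, 3 and 6 in EN and 18, 16 and 20 in ENR. Chd5, a chromatin remodeller, had 4, 1 and 0 in EN and 10, 7 and 12 in ENR. The remaining 4 were Kif12 (a kinesin), Slco5a1, Dennd2a and Hrk (a BH3-only activator of cell death), with differences from -2.52 to -2.16.

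**Figure D1:**
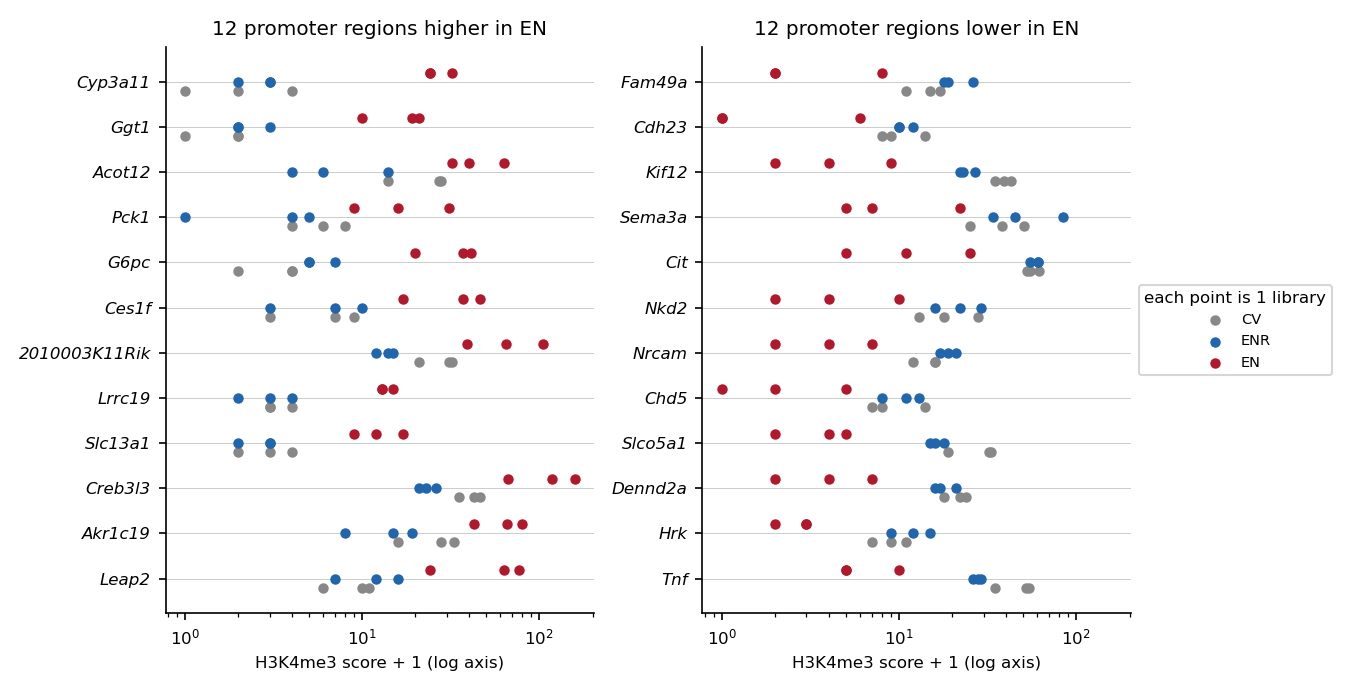
H3K4me3 score + 1 on a log axis for the 12 promoter regions with the largest rises (left) and falls (right), with 1 point per library for EN (red), ENR (blue) and CV (grey). No EN point lies among the ENR points of its gene, because the regions were picked for it, and the CV points lie on the ENR side for most genes.

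Farther than 1000 bp from any start site, the largest rises differed in how closely the EN libraries matched. A region at chr19:4817688-4818241, outside annotated genes and 6054 bp from the nearest start site, near Rbm14, had scores of 30, 35 and 52 in EN and 4, 5 and 4 in ENR (2.87 ± 0.34, limma adjusted p = 0.00534). A region at chr11:86718538-86718927 had 45, 82 and 43 in EN and 14, 7 and 2 in ENR (2.96 ± 0.51). Another at chr16:30955025-30955236 rested on EN1, with 41 there against 3 and 5 in EN2 and EN4 and 0, 0 and 1 in ENR. It fell under the minimum score and was not tested without EN1. The largest falls, at chr5:111938038-111938572 (1, 0 and 0 in EN, 8, 7 and 8 in ENR), chr7:120190377-120190882 (1, 0 and 1 in EN, 12, 7 and 9 in ENR) and chr2:157916872-157917530 (1, 3 and 5 in EN, 21, 18 and 15 in ENR), started from low scores. The region on chr5 passed the minimum score through CV, with 9, 7 and 5 there.

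Most of the tested genes of the enterocyte surface and of absorption were called higher in EN. Of 30 listed, 3 had no region within 1000 bp of a start site, 6 were under the minimum and 21 were tested, of which 14 were called higher in EN and 0 lower. Over all promoter regions, 3.64% were higher and 3.01% lower. All 21 differences were positive, with a median of 1.42 against 0.11 for all promoter regions, and 20 had an unadjusted limma p under 0.05. Slc2a5, the fructose transporter, had scores of 92, 104 and 108 in EN and 16, 27 and 26 in ENR (2.12 ± 0.24, limma adjusted p = 0.00534). Sis, which encodes sucrase-isomaltase, had 27, 36 and 43 in EN and 7, 11 and 6 in ENR (2.03 ± 0.34). The fatty acid binding protein genes Fabp2 (36, 78 and 128 in EN, 18, 24 and 13 in ENR) and Fabp1 (43, 95 and 129 in EN, 19, 30 and 23 in ENR) rose by 1.94 and 1.74. EN1 was the lowest EN library in each of these genes. The peptidase genes Mep1b and Mep1a rose by 1.85 and 1.81. Mep1a had 7, 7 and 7 in EN and 1, 1 and 2 in ENR, and passed the minimum score through CV, with a mean of 10.3 there. The count of calls was 20 without EN1, 2 without EN2 and 8 without EN4, and 12 to 13 under the other scalings. Without EN1, 4867 of all 20738 regions tested were higher.

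Stem cell and Wnt target genes lost the mark in part. All 25 listed were tested, 7 were called lower and 0 higher, and the median was -0.62. The shares over all promoter regions were 3.01% lower and 3.64% higher. Without EN1, 11 were lower and 1 higher, beside 1660 lower and 4867 higher of all 20738 regions tested. Both other scalings gave 10 lower and 0 higher. Lgr5, the R-Spondin receptor that marks the stem cells, had scores of 30, 24 and 18 in EN and 66, 74 and 61 in ENR (-1.47 ± 0.19, limma adjusted p = 0.00541). Ascl2, a transcription factor of these cells, had 26, 23 and 27 in EN and 72, 52 and 60 in ENR (-1.23 ± 0.17, limma adjusted p = 0.00708). Both genes still had scores of at least 18 in every EN library. Olfm4, a secreted glycoprotein of stem cells, was weakly marked, with 1, 1 and 4 in EN and 9, 9 and 7 in ENR (-1.77 ± 0.43, limma adjusted p = 0.0325). The Wnt feedback inhibitor Nkd1 fell from 36, 32 and 33 in ENR to 14, 15 and 13 in EN (-1.21 ± 0.22). Cd44, an adhesion receptor, and Ephb3, which positions cells along the crypt, fell by 1.07 and 0.83. The other call was Smoc2, a matricellular protein gene, at -0.67. Among the 18 not called were Axin2 at -0.44, Sox9 at -0.68 and Myc at -0.20, and the highest was Rgmb, a BMP co-receptor gene, at 0.78.

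Of 25 tested genes of DNA replication and the cell cycle, 4 were lower in H3K4me3 in EN and 1 higher, against 3.01% and 3.64% of all promoter regions, with a median of -0.37. Under the other scalings 8 and 9 were lower, and without EN2 only 1 was. Cdc20, an activator of the anaphase-promoting complex, had 21, 32 and 29 in EN and 58, 61 and 56 in ENR (-1.09 ± 0.19, limma adjusted p = 0.0127). Cdk1, the mitotic kinase, had 59, 62 and 68 in EN and 115, 98 and 91 in ENR (-0.67 ± 0.15, limma adjusted p = 0.024). Ccnd1, which encodes cyclin D1, and Tyms, the thymidylate synthase, fell by 0.78 and 0.68. Mcm2, a subunit of the replicative helicase, was not called, with 16, 20 and 28 in EN and 40, 30 and 26 in ENR (-0.58, limma adjusted p = 0.194).

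None of the 20 ribosome biogenesis genes was called in H3K4me3 by limma, and 1 higher and 2 lower had an unadjusted p under 0.05. Calls were few over all promoter regions too, at 3.64% higher and 3.01% lower. Differences ran from -0.51 to 0.47 with a median of 0.04, which was -0.16 after quantile normalization. The nucleolar protein gene Npm1 had 92, 87 and 101 in EN and 90, 93 and 81 in ENR, and Ncl, which encodes nucleolin, had 94, 119 and 149 in EN and 124, 132 and 110 in ENR.

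Among 32 intestinal transcription factors, 2 were called higher and 0 lower (1 had an unadjusted limma p under 0.05 in that direction), where 3.64% of all promoter regions were higher and 3.01% lower. They were Creb3l3 and Maf, which rose from 84, 86 and 99 in ENR to 119, 138 and 139 in EN (0.55 ± 0.15, limma adjusted p = 0.0446). Without EN1, 6 were higher and 1 lower, beside 4867 higher and 1660 lower of all 20738 regions tested. Hnf4g, a nuclear receptor of enterocytes, had 48, 59 and 54 in EN and 47, 49 and 47 in ENR (0.16, limma adjusted p = 0.626). Of 19 lipid oxidation and PPAR target genes, 4 were higher and 0 lower, and 15 were higher and 1 lower without EN1. Beside Cyp3a11, an oxidase of drugs and steroids that is counted in this list, the 4 were Acaa1b, Mogat2 and Cpt1a. Acaa1b, a peroxisomal thiolase, had 54, 64 and 74 in EN and 28, 22 and 25 in ENR. Mogat2, which makes diacylglycerol for triglyceride synthesis, had 71, 70 and 92 in EN and 35, 31 and 29 in ENR. Cpt1a, which admits long-chain fatty acids to mitochondria, had 96, 111 and 124 in EN and 76, 78 and 66 in ENR. Abcg5 and Abcg8 are counted separately, with the same difference of 1.224, and were not called. Maf and Cpt1a were called in 5 of 15 alternative settings each.

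No member was called in 5 further lists. They were 8 tested of 26 secretory lineage genes, the 18 writers, subunits and erasers of H3K4 methylation, 8 of 20 developmental genes of other tissues, 5 of 10 Yap and fetal-type genes, and the 2 markers of other cell types. At an unadjusted limma p under 0.05 stood 2, 3, 4, 2 and 0 of them. Over all promoter regions, 3.64% were called higher and 3.01% lower. The developmental genes had a median of -1.03. Pax2, a kidney and eye regulator, had 10, 5 and 4 in EN and 13, 12 and 19 in ENR, and Hoxd13, a posterior patterning gene, had 12, 2 and 6 in EN and 12, 12 and 27 in ENR. EN1 was the highest EN library in both genes. Without EN1, 6 of the 8 developmental genes were called lower, as were 2 of the 8 secretory and 2 of the 5 Yap genes, and 6 of the 18 H3K4 genes were higher and 1 lower. These counts stand beside 4867 regions higher and 1660 lower of all 20738 tested without EN1. Hoxb13 (2, 2 and 2 in EN), Anxa1 of the Yap list (1, 3 and 1 in EN) and Pax3 (1, 4 and 2 in EN) were among those that passed the minimum through CV. Their means there were 13.3, 16.3 and 11.3. Of 12 housekeeping genes, only Eef1a1, a translation elongation factor, was called (139, 140 and 167 in EN, 102, 107 and 94 in ENR), and it was not called under either of the other scalings.

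**Figure D2:**
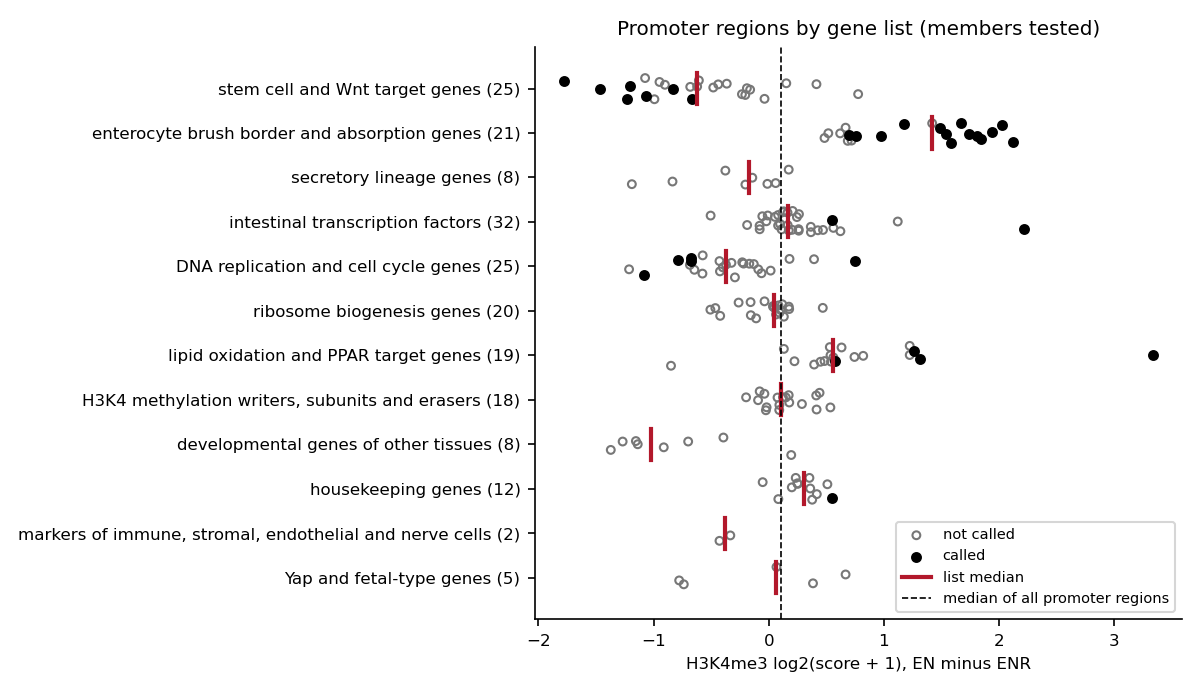
Difference in H3K4me3 between EN and ENR (log2 of score + 1) for the promoter regions of 12 gene lists, with 1 point per gene tested, filled where called, a red bar at the list median and a dashed line at the median of all promoter regions (0.11). The enterocyte list lies to the right of that line, the stem cell list mostly to the left, and the ribosome list around it.

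At Hnf4a, the nuclear receptor gene of gut and liver, the calls lay at its antisense gene. Of 6 tested regions within 1000 bp of an Hnf4a start site, 0 were called by limma and 1 had an unadjusted p under 0.05, with differences from 0.03 to 0.80. Another of the 6, chr2:163375256-163375747, was called without EN1 (0.70, limma adjusted p = 0.0222). The strongest, chr2:163332125-163333837, had scores of 69, 86 and 88 in EN and 67, 90 and 73 in ENR, and chr2:163372666-163373150 had 44, 29 and 25 in EN and 28, 26 and 41 in ENR. The antisense gene, annotated as 0610008F07Rik on the minus strand, had 31, 47 and 55 in EN and 19, 19 and 18 in ENR in a region across its start site, chr2:163366942-163367834 (1.17 ± 0.26, limma adjusted p = 0.024). A second region downstream of that start had 30, 27 and 23 in EN and 10, 10 and 9 in ENR (1.37 ± 0.29, limma adjusted p = 0.0218). Neither EN group overlapped its ENR group. Both regions lie within the longest annotation of Hnf4a, and ChIPmentation reads do not tell the strands apart. RNA of the Hnf4a transcript with the highest mean count was 703 ± 12.3 CPM (SD, n = 4) in EN and 708 ± 9.65 in ENR. Other Hnf4a transcripts were not read here. The study reports that an alternative isoform, which the antisense gene overlaps, was strongly reduced in enterocyte differentiation. Alpi, the brush border phosphatase, rose in both of its regions, from 4, 11 and 8 in ENR to 16, 24 and 30 in EN within chr1:88997550-88998053 (1.54 ± 0.38, limma adjusted p = 0.033), and from 5, 3 and 5 to 19, 15 and 26 in the region 855 bp downstream of the start site (1.97 ± 0.39, limma adjusted p = 0.0182). The region 855 bp downstream passed the minimum score only through EN.

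The regions that rose and those that fell lay in different kinds of sequence. Of the 915 higher in EN, 61.4% lay within 1000 bp of a start site, against 83.8% of the 499 lower and 70.7% of those not called. Their median CpG content was 2.81 per 100 bp in the higher regions, 6.87 in the lower and 4.6 in the others. Among regions near start sites alone, these medians were 4.38, 7.24 and 5.40. When all regions tested were split into 5 classes of nearly equal size by CpG content, 8.29% of the class lowest in CpG were higher in EN and 0.981% lower, and 2.11% of the class highest in CpG were higher and 5.57% lower. The lowest class also had the weakest mark, with a median score of 8.0 against 48.1 in the highest, and the part of level in this pattern was not tested.

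H3K27me3 in ENR, measured in other libraries, was higher where H3K4me3 fell. For this broad mark the study extended the peaks to 1000 bp. Its scores may therefore cover a different stretch than the H3K4me3 scores of the same region. The median H3K27me3 score in ENR was 18.3 at the regions lower in EN, 5.0 at those higher in EN and 5.0 at those not called. In EN these medians were 17.3, 8.67 and 8.67. Of 1760 regions with a mean H3K27me3 score of 30 or more in ENR, 11.5% had lost H3K4me3 in EN and 5.45% had gained it, against 1.2% and 4.45% of the 16495 regions with a score under 10. Regions of the first kind had a median H3K4me3 score of 12.8 and those of the second of 35.8, and their median CpG contents were 7.67 and 4.2 per 100 bp, so that H3K27me3, CpG content and level cannot be told apart here. Of the largest falls, Hrk had a mean H3K27me3 score of 74.7 in ENR and 22.7 in EN. In the same order, Dennd2a had 64 and 29.3, Chd5 55.7 and 32.3, Slco5a1 50.0 and 21.3, and Cdh23 47.0 and 28.0. Sema3a, Nkd2 and Nrcam were also lower in EN. Cit had 4.0 in ENR and Tnf 8.0, and both were higher in EN, as were Fam49a and Kif12. Acot12 had 115 in ENR, the highest of the 12 largest rises, and 67.7 in EN. The 8 developmental genes ranged from 65.7 to 147 in ENR with a median of 89.0, against 5.0 for all promoter regions. Their median in EN was 43.8, against 8.67 for all promoter regions.

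**Figure D3:**
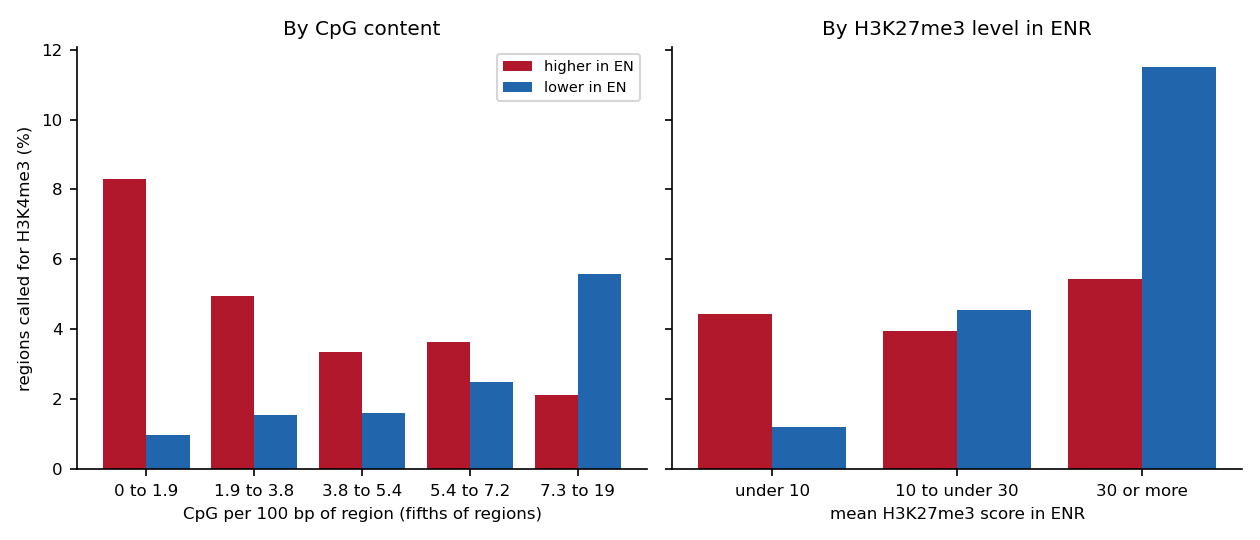
Share of regions called higher (red) or lower (blue) in EN for H3K4me3, by 5 classes of CpG content (left) and by the mean H3K27me3 score in ENR (right). The share of regions that fell rises from 0.981% to 5.57% over the CpG classes and from 1.2% to 11.5% over the H3K27me3 classes.

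H3K27ac, ATAC, H3K27me3 and RNA were then read at the regions called for H3K4me3. They came from other libraries, made from aliquots of organoids that served several assays. H3K27ac, a mark of active promoters and enhancers, was tested in 19428 of the regions, of which 4.91% were higher in EN and 2.04% lower. At the regions that gained H3K4me3, 245 of 908 were higher in H3K27ac and 1 lower, with a median of 0.93 on the log2 scale. At those that lost it, 69 of 430 were lower and 0 higher (1 had an unadjusted limma p under 0.05 in that direction), with a median of -0.72. The direction of the H3K27ac calls depends on scaling, since 77.0% of all its calls were higher in EN and 41.7% after quantile normalization. ATAC, which reads open chromatin, was higher in EN in 13.0% of 17322 regions and lower in 15.5%. Of 734 regions that gained H3K4me3, 178 were more open in EN and 71 less. Of 432 that lost it, 155 were less open and 9 more. At Cit the ATAC score fell from 65.2 ± 11 (SD, n = 4) in ENR to 14.8 ± 3.30 in EN, and at Kif12 from 60.2 ± 14.1 to 14.2 ± 2.87. At Pck1 it rose from 145 ± 4.55 to 268 ± 43.8. H3K27me3 was called in 7 of 17015 regions, all lower in EN (0.0411%), so the levels above are given without a test of change.

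RNA was measured in 4 libraries per culture, for transcripts whose proteins had been quantified, so a gene missing from this table need not be silent. Of 8118 genes with a tested promoter region and a tested transcript, 36.5% were higher in EN and 39.5% lower (edgeR quasi-likelihood test, adjusted p under 0.01). Of 344 genes whose promoter gained H3K4me3, 286 were higher in RNA (83.1%) and 30 lower, and of 132 genes whose promoter lost it, 104 were lower (78.8%) and 8 higher. The median RNA difference was 1.24 in the first group and -2.33 in the second. Only 132 of the 369 genes that lost the mark had a tested transcript, against 344 of the 446 that gained it. Of the 7642 genes whose promoter was not called, 2666 were higher in RNA and 3069 lower. Across all 8118 genes the 2 differences correlated with r = 0.509. Genes are not independent replicates, and neighbouring genes can share a region.

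RNA levels are given in CPM after TMM scaling. Cyp3a11 RNA rose from 327 ± 44.4 (SD, n = 4) in ENR to 4870 ± 506 in EN, and G6pc RNA from 58.5 ± 6.12 to 427 ± 28.9. Pck1 RNA rose from 8.12 ± 1.98 to 89.4 ± 8.1 and Creb3l3 RNA from 147 ± 8.22 to 877 ± 33.0. Each of these had edgeR adjusted p of 6.92e-13 or less. Cyp3a11 belongs to a family of similar transcripts, among which the estimated counts may have been split.

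Many genes with a large fall in RNA had a small difference in the mark or one that was not called. Lgr5 RNA fell from 129 ± 4.88 in ENR to 1.81 ± 0.778 in EN, a log2 difference of -6.07 against -1.47 for H3K4me3 and -2.72 for H3K27ac. Ascl2 RNA fell from 9.37 ± 2.02 to 0.22 ± 0.18, with at most 3 reads in an EN library, and its H3K4me3 differed by -1.23. Cdk1 RNA fell from 135 ± 7.34 to 3.57 ± 1.16 (-5.18), with H3K4me3 at -0.67. Mcm2 RNA fell from 95.8 ± 7.0 to 1.86 ± 0.24 (-5.67), with H3K4me3 not called at -0.58. Of 22 cell cycle genes with a tested transcript, 21 were lower in RNA, with a median of -5.0, and 10 of 25 were lower in H3K27ac, with a median of -1.09. Of 20 ribosome biogenesis genes, 19 were lower in RNA (median -2.27), 3 in H3K27ac and 0 in H3K4me3 by limma. Npm1 RNA went from 1550 ± 29.5 to 330 ± 35. At Fam49a the RNA differed by -1.58 and the mark by -2.71. Hnf4g RNA rose from 369 ± 9.2 to 1410 ± 105 while its H3K4me3 was not called. Scores and CPM are on different scales, and a score has a background that RNA lacks, so sizes are set side by side and not tested against each other.

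Genes were then grouped by their RNA difference. Of 159 genes whose RNA difference was under -4, 29 were lower in H3K4me3 (18.2%) and 0 higher, with a median of -0.33. Of 420 genes between -4 and -2, 44 were lower (10.5%). Of 210 genes whose RNA differed by 2 or more, 94 were higher in H3K4me3 (44.8%) and 1 lower, with a median of 0.84. In H3K27ac the medians of these groups were -0.89, -0.65 and 1.15.

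**Figure D4:**
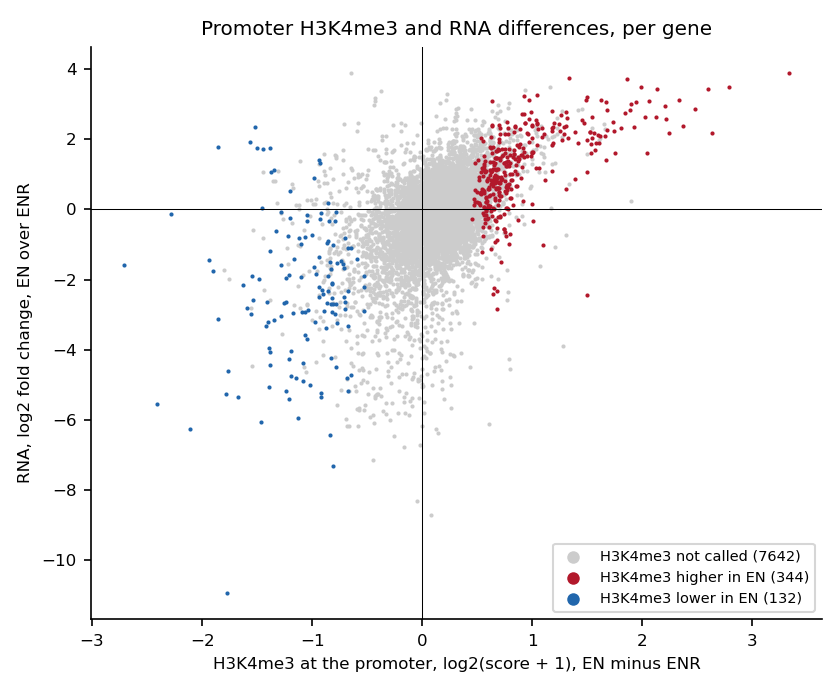
Difference in RNA (log2 fold change, EN over ENR, edgeR) against the difference in promoter H3K4me3 (log2 of score + 1, EN minus ENR) for 8118 genes, with the 344 whose mark rose in red and the 132 whose mark fell in blue. Red points lie mostly above 0 and blue points mostly below, and many grey points reach an RNA difference under -4 with little change in the mark.

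Regions that gained the mark also held more reads of Hnf4g, from 1 library per culture. In the EN library the median was 76.5 reads per kb at the regions higher in EN, 26.7 at those lower and 41.3 over all regions tested, and in the ENR library 10.3, 5.54 and 5.67. These are single libraries without a replicate, and they differ in depth, so only regions within a library are compared. Median ATAC scores in EN followed the same order, at 50.8 in the regions higher in EN, 11.5 in those lower and 36.8 in all tested. So did H3K27ac in EN, with medians of 71.0, 7.67 and 38.7. The part of open chromatin in the Hnf4g reads was not tested. The HNF4 motif CAAAGTCCA, searched on both strands in the 300 bases around start sites, was found in 15 of 538 windows of regions higher in EN (2.79%), in 0 of 400 of those lower and in 0.541% of all 13869 such windows. In windows on the centre of regions without a protein-coding start site nearby, it was in 3.5% of those higher, in 0 of 97 of those lower and in 1.77% of all. It occurs in the windows printed above of Cyp3a11, 1 base past the start site, and of Alpi, 19 bases before it, and in none of the others. The TCF motif ATCAAAG was in 2.42% of the start site windows of regions higher in EN, 2.75% of those lower and 1.72% of all, and the AP-1 motif TGACTCA in 5.39%, 3.0% and 2.74%. None of the 6 windows printed above held either of these. The groups of windows also differed in base composition. Start site windows had a median of 19 CpG in regions higher in EN, 25 in those lower and 25 in all. In windows on region centres these medians were 5, 12 and 7. The part of base composition in the motif shares was not tested. A match is a run of letters and was not tested for binding.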

How the data were processed

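ChIPmentation of H3K4me3 in 3 EN, 3 ENR and 3 CV libraries was the main measurement. Reads had been aligned to mm9 with BWA, duplicates removed with Picard and peaks called with MACS2 2.0. Regions are the union of all peaks. As a score for each, the authors deposited normalized whole numbers, and how these were made is not given in the sources used here. The deposited Hnf4g values are unnormalized read counts. For RNA the authors deposited expected counts from kallisto, whose version the labels and the study's methods give differently, and TPM. Depth behind the scores is unknown. Coordinates are as deposited, and whether starts count from 0 or 1 is not stated.

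Regions with a mean score of at least 5 over the fitted libraries were tested with limma 3.58.1 (trend, R 4.3.3) on log2(score + 1), which understates changes of low regions, and ATAC, H3K27ac and H3K27me3 likewise. Rounded counts of 9288 transcripts were tested with edgeR 4.0.16 and, as an alternative, DESeq2 1.42.0. The transcript with the highest mean count stood for a gene. Start sites came from GENCODE for mm9, older symbols were matched through RefSeq, and sequence came from the mm9 genome. Scripts were tested on simulated data.

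Members, gene lists and tests were chosen with earlier results of these data known. Named were the 12 largest called, non-overlapping promoter differences per direction, 3 distal ones, up to 6 members per list, and the regions at Hnf4a, its antisense gene and Alpi. Genes on Y and those with over 50% of 31-base words repeated elsewhere were left out of the first. Alternatives changed the libraries, pseudocount, scale, normalization, filter, trend, prior and threshold. Same-numbered EN and ENR libraries deviated together with r of 0.104, 0.136 and -0.0879, so the number was not taken as a pairing. Further H3K4me3 samples of the series were not analysed here. Of the cell cycle list, 1 gene is counted but not reported here by name.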

Additional observations from a re-analysis of the deposited data

Results flagged for a closer look

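RNA values of 4 libraries stood behind each printed mean, and 3 of 56 groups of 4 (RNA and ATAC) had 1 library far from the other 3, where chance gives about 1 in 20. Lgr5 RNA was 0.642 CPM in EN2 and 2.14 to 2.28 in the other EN libraries. Slc2a5 RNA was 62.1 in ENR3 and 52.9 to 53.7 in the other ENR libraries. Hnf4a RNA was 722 in ENR4 and 701 to 704 in the other ENR libraries. H3K4me3 groups of 3 were not examined in this way.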

How the results depend on the processing

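The count of 1414 H3K4me3 calls changed by more than 1.5 times under several settings. It was 32 with the EN and ENR libraries only, 381 with the replicate block in these 6 libraries, 646 with a mean score of at least 20, 4810 with regions above 0 in at least 3 libraries, 60 to 6527 with 1 library left out and 0 at an adjusted p under 0.001 in limma, where 5372 had an unadjusted p under 0.05. Array weights, chosen after seeing the data, gave 12233, with a weight of 27.5 on EN2 and 0.114 on EN1. The other settings gave 1253 to 1739. The replicate number is only a number here, and 295 of the 381 blocked calls were higher. Of 910 values of the 56 called and named regions under 17 settings, 244 were past the threshold no longer. Their direction was fixed by how they were chosen. Of regions not called, Hnf4a at chr2:163332125 came to -0.1 (quantile), -0.11 (strong regions centred) and -0.01 to 0.2 with 1 library left out, at chr2:163372666 to -0.04 (quantile), -0.2 to 0.23 with 1 library left out, -0.16 (centred) and -0.11 (array weights), and at chr2:163373154 to -0.08 (centred). Hnf4g came to -0.03 (centred), Ncl, at -0.04, to 0.02 without ENR2 and 0.13 without EN1, and Npm1 to -0.13 (quantile), -0.1 (centred) and -0.01 (array weights). With 500 bp in place of 1000 bp, 54.1% of the higher, 81.2% of the lower and 64.7% of the other regions lay near a start site.

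H3K27ac calls, 2063, were 848 after quantile normalization, 0 with the replicate block (9836 regions at an unadjusted limma p under 0.05) and 379 to 1479 with 1 library left out. H3K27me3 calls, 13, were 1 with a pseudocount of 5, 0 after quantile normalization, 0 with the replicate block (6392 regions at an unadjusted limma p under 0.05) and 0 to 133 with 1 library left out. Both of these block fits held only the libraries whose number EN and ENR share, numbers 2 and 4, and no CV, so the block and the smaller set of libraries cannot be told apart. ATAC calls, 18565, were 15643 to 22616, and transcripts, 6756, were 6543 to 6750, 6705 of them with the replicate block. The cause of these shifts was not tested. No further H3K4me3 library could be added, since the table used here holds 3 per culture.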

Other observations

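The 3 regions with the highest mean H3K4me3 score lay farther than 1000 bp from any start site, and all were called higher in EN. At chr17:39979986-39983865 scores were 1842, 1008 and 1079 in EN and 463, 426 and 595 in ENR, at chr6:103598917-103599483 they were 2381, 852 and 1306 against 211, 238 and 302, and at chrX:139917349-139917872 they were 1012, 359 and 483 against 132, 98 and 147. EN1 was the highest library in each, and between 8.34% and 25.8% of the 31-base words of these regions occur elsewhere in the genome. Whether scores this high reflect the mark or background signal was not tested.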
